A study of Mus musculus with 12 samples.

Results

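The genes of fat absorption, triglyceride synthesis and chylomicron formation were followed in mouse duodenum, the segment of small intestine below the stomach. The module lists 38 genes by symbol, and a member counted as measured where an array feature carried its symbol alone. By that rule 37 of the 38 members were measured, among 19938 genes in all. The feature for Apoc2 was paired with a second symbol, so no value of its own was used. The members fall into 5 genes of uptake and intracellular carriage, 15 of acylation into triglyceride and phospholipid, 9 of chylomicron assembly and transport, and 8 of the lipid droplet and lipolysis.

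Total RNA was measured on Affymetrix arrays in 4 groups of 3 arrays. The groups were Onecut-2 knockout at postnatal day 30, Onecut-2 knockout at day 15, wild type at day 30 and wild type at day 15. All mice were of strain 129 and untreated, and the RNA on an array came from a pool of 5 to 8 mice, both sexes together. The labels say only that the Onecut-2 gene was ablated in the knockout, with no allele or Cre named, and they give neither the diet nor the day of weaning. Onecut-2 encodes a cut homeodomain transcription factor. The study set the ages against each other within each genotype and the genotypes against each other at each age.

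Dietary triglyceride is split in the gut lumen into fatty acids and monoacylglycerol, which enter the enterocyte, bind carrier proteins and are joined again into triglyceride at the endoplasmic reticulum. The new triglyceride is either loaded onto apolipoprotein B and exported to the lymph as a chylomicron, or held for a time in a cytosolic lipid droplet and released later by lipases. In mice, weaning from fat-rich milk to solid food usually falls between these ages.

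The deposited values are log2 expression, so a difference of 1 is a 2-fold difference. Array medians lay between 7.20 and 7.25, the middle gene averaged 7.56 and the highest gene value on any array was 14.49. Onecut2 itself read between 8.18 and 8.25 in knockout at day 30, between 8.09 and 8.20 in knockout at day 15, between 9.50 and 9.63 in wild type at day 30 and between 9.55 and 9.69 in wild type at day 15. Every array thus matched its genotype label, while the ages overlapped within each genotype. The epithelial marker Vil1 lay between 12.58 and 12.92 and the duodenal marker Pdx1 between 9.69 and 10.57. The adipocyte hormones Adipoq and Lep stayed between 4.41 and 5.17, and the hepatocyte product Alb between 5.37 and 5.92, all below 6.20, the 25th percentile of gene means. Other markers of these cell types read higher. The hepatocyte markers Ttr and Tat lay between 7.91 and 9.19 and between 6.30 and 7.87, and the adipocyte marker Retn between 6.49 and 6.96. A gene was called where its Benjamini-Hochberg adjusted p over all 19938 genes was under 0.05 in limma. Since RNA of whole segments was pooled, fewer cells of a type and less RNA per cell cannot be told apart.

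Most members differed with age, and each of the 4 groups of members held genes of both directions. At day 30 the chylomicron apolipoproteins, the intestinal fatty acid carriers and the droplet coat gene Plin2 were lower than at day 15 in both genotypes. The acyltransferases Dgat1, Gpat3, Agpat1 and Agpat2 and the phosphatase Lpin3 were higher in both genotypes. In knockout, 11 members rose and 17 fell, 75.7% of those measured, where 31% of all genes were called (13.8% higher and 17.2% lower). In wild type, 8 rose and 18 fell, 70.3% of the members, where 29.3% of all genes were called (12.3% higher and 17% lower). The median log2 fold change of the members was -0.13 in knockout and -0.15 in wild type, and that of all genes was 0.03 in knockout and 0.02 in wild type.

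The members are bright genes, and bright genes were called more often. Of the 37, 30 belonged to the 4985 genes with the highest means. Among these 4985 genes 51.7% were called with age in knockout and 46.4% in wild type, and 24 of the 30 bright members were called in each genotype. Called in the same direction in both genotypes were 24 members, 8 higher (21.6% of members, against 8.74% of all genes) and 16 lower (43.2%, against 13.2% of all genes). No member was called in opposite directions. The day 30 and day 15 arrays did not overlap for 32 members in knockout (12 above and 20 below), against 42.8% of all genes. In wild type they did not overlap for 30 (10 above and 20 below), against 43.8% of all genes. The knockout and wild type arrays are separate samples, but both comparisons draw on 1 shared estimate of the spread.

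**Figure D1:**
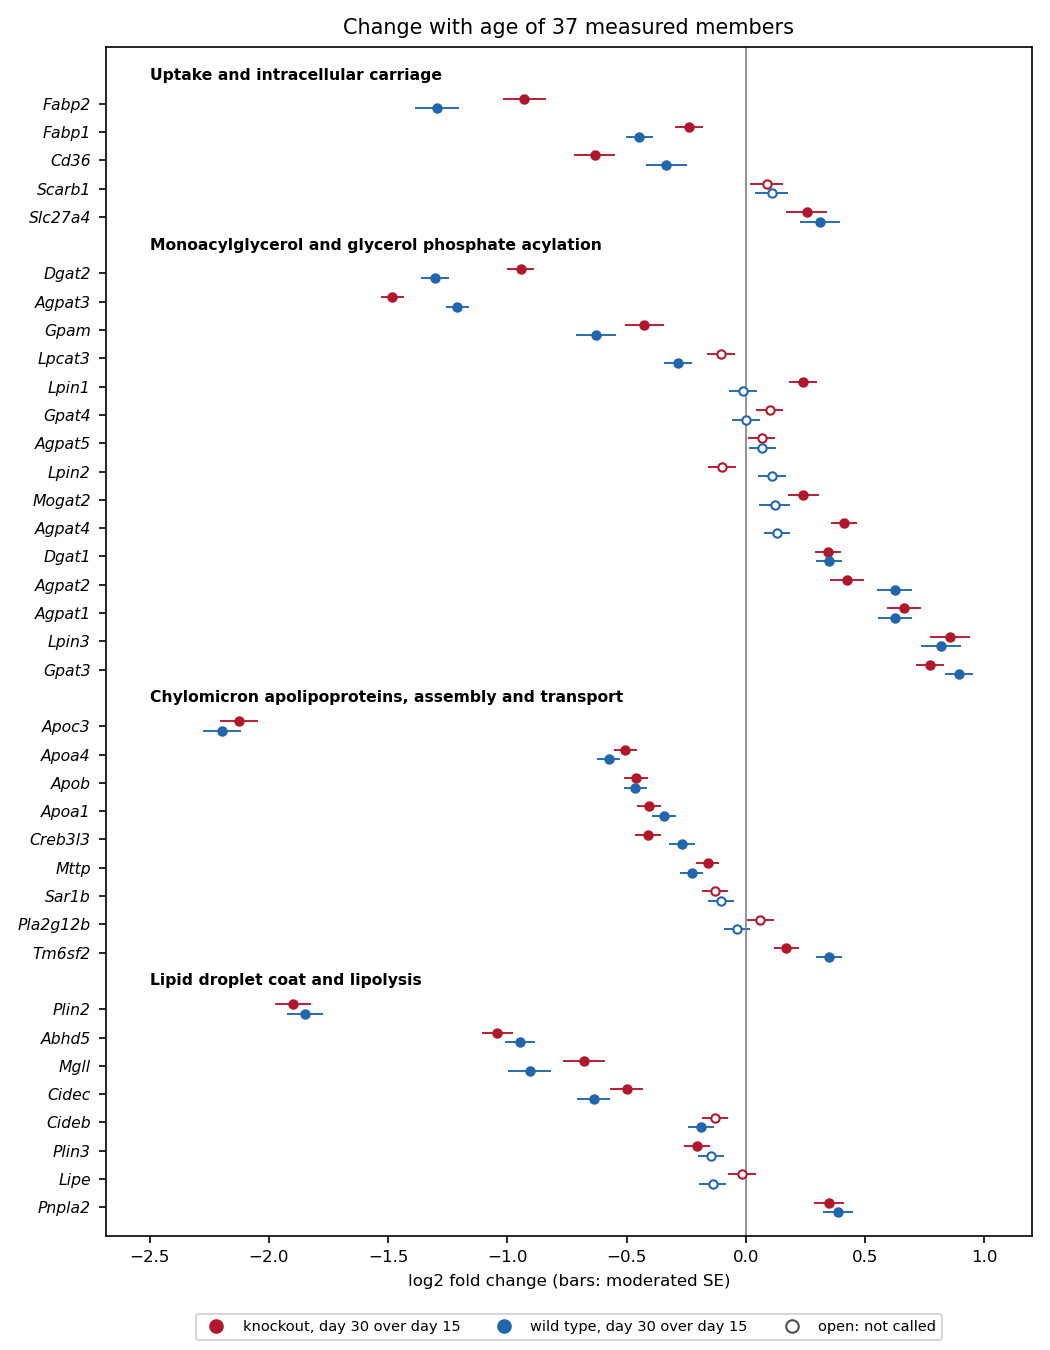
Change with age of the 37 measured members, grouped by role, as log2 fold change of day 30 over day 15. Red points are knockout, blue points wild type, bars the moderated standard error, and filled points were called by limma. Apoc3 and Plin2 lie farthest to the left in both genotypes, and the rising members are mostly genes of triglyceride synthesis.

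The upstream sequences of 4 members that fell in both genotypes are shown, since all hold the hexamer AGGTCA, the core letters bound by many nuclear receptors, among them receptors for fatty acids and retinoids. These members stand for different steps: the droplet coat (Plin2), lipolysis (Abhd5), fatty acid carriage (Fabp1) and fatty acid uptake (Cd36). Each run gives the 250 bases before the start of the gene, 5′ to 3′ on the gene's strand, from RefSeq on GRCm38.p6. Capitals mark TGACCT, which is AGGTCA read on the other strand.
Plin2: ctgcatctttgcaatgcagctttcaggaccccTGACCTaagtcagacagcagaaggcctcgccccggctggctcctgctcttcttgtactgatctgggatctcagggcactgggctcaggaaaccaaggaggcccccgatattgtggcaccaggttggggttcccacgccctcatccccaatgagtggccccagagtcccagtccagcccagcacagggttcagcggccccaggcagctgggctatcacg
Abhd5: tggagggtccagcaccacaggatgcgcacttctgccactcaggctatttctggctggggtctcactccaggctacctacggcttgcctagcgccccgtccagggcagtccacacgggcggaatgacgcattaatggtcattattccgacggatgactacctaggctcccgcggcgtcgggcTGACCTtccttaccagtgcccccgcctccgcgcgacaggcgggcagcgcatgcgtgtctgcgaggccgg
Fabp1: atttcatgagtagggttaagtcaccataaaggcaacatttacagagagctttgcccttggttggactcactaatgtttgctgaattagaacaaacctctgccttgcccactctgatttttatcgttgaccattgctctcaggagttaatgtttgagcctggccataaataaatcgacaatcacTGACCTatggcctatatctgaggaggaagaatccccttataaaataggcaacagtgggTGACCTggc
Cd36: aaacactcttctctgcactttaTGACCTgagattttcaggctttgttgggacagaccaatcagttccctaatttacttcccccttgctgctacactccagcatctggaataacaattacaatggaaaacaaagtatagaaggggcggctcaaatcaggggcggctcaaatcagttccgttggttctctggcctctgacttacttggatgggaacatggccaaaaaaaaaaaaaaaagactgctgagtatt
The Plin2 run is chr4:86670060-86670309 on the minus strand, with the match 218 bases before the start. The Abhd5 run is chr9:122351366-122351615 on the plus strand, with the match 69 bases before the start. The Fabp1 run is chr6:71199629-71199878 on the plus strand, with matches 67 and 9 bases before the start. The Cd36 run is chr5:17835897-17836146 on the minus strand, with the match 228 bases before the start.

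RefSeq start windows of 300 bases, 250 before the start and 50 after it, were found for 29 of the 37 measured members. AGGTCA on either strand was in 8 of the members' 38 windows (21.1%), against 16.3% of all 32851 windows, so the share among members was close to that of all genes. The 8 genes were Abhd5, Cd36, Creb3l3, Fabp1, Gpam and Plin2, which fell in both genotypes, Agpat1, which rose in both, and Lpin1. The Onecut core letters ATTGAT, searched on both strands, were in 0 of the 38 windows, against 7.54% of all windows. A direct repeat of AGGTCA with 1 base between the copies was in 0 member windows and in 0.0396% of all windows. Scarb1, Mogat2, Dgat1, Dgat2, Gpat4, Agpat5, Apoc3 and Tm6sf2 were not matched.

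Among the 5 genes of uptake and carriage, 1 rose and 3 fell in each genotype. Over all genes, 13.8% rose and 17.2% fell in knockout, and 12.3% rose and 17% fell in wild type. The steepest fall was that of Fabp2, the intestinal fatty acid binding protein. Fabp2 read 12.23, 12.46 and 12.39 in knockout at day 30, against 13.31, 13.20 and 13.36 in knockout at day 15. The wild type values were 12.14, 11.78 and 12.12 at day 30, against 13.32, 13.31 and 13.29 at day 15. Every day 30 array lay below every day 15 array. Its log2 fold change came to -0.93 in knockout (standard error 0.09, limma adjusted p = 6.8e-06) and -1.29 in wild type (standard error 0.09, limma adjusted p = 4e-07).

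Fabp1, the liver-type fatty acid binding protein, which is also abundant in duodenal enterocytes, fell less. It averaged 13.00 ± 0.03 at day 30 and 13.24 ± 0.08 at day 15 in knockout, and 12.69 ± 0.05 at day 30 and 13.13 ± 0.06 at day 15 in wild type (SD, n = 3 each). This gave a log2 fold change of -0.24 in knockout and -0.45 in wild type (limma adjusted p = 0.0067 and 6.4e-05). Cd36, a membrane protein that helps long-chain fatty acids enter the cell, fell by 0.63 on the log2 scale in knockout and by 0.33 in wild type (limma adjusted p = 9.6e-05 and 0.01). The wild type call ended without wild type day 15 replicate 2 (limma adjusted p = 0.0513).

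Slc27a4, a fatty acid transport protein that activates long-chain fatty acids, was the riser of this group. It averaged 11.49 ± 0.07 at day 30 and 11.23 ± 0.09 at day 15 in knockout, and 11.24 ± 0.03 at day 30 and 10.93 ± 0.19 at day 15 in wild type. This was a log2 fold change of 0.25 in knockout and 0.31 in wild type (limma adjusted p = 0.036 and 0.013). These calls rested on single arrays: the knockout call ended without any 1 of 5 of its 6 arrays (all but knockout day 15 replicate 1), with adjusted p up to 0.138, and the wild type call without wild type day 15 replicate 2 or replicate 3, with adjusted p up to 0.0679. Scarb1, the scavenger receptor that takes up cholesterol and other lipids, did not pass, with log2 fold changes of 0.09 and 0.11 in knockout and wild type, though the knockout value passed without knockout day 15 replicate 1 (adjusted p = 0.0449).

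**Figure D2:**
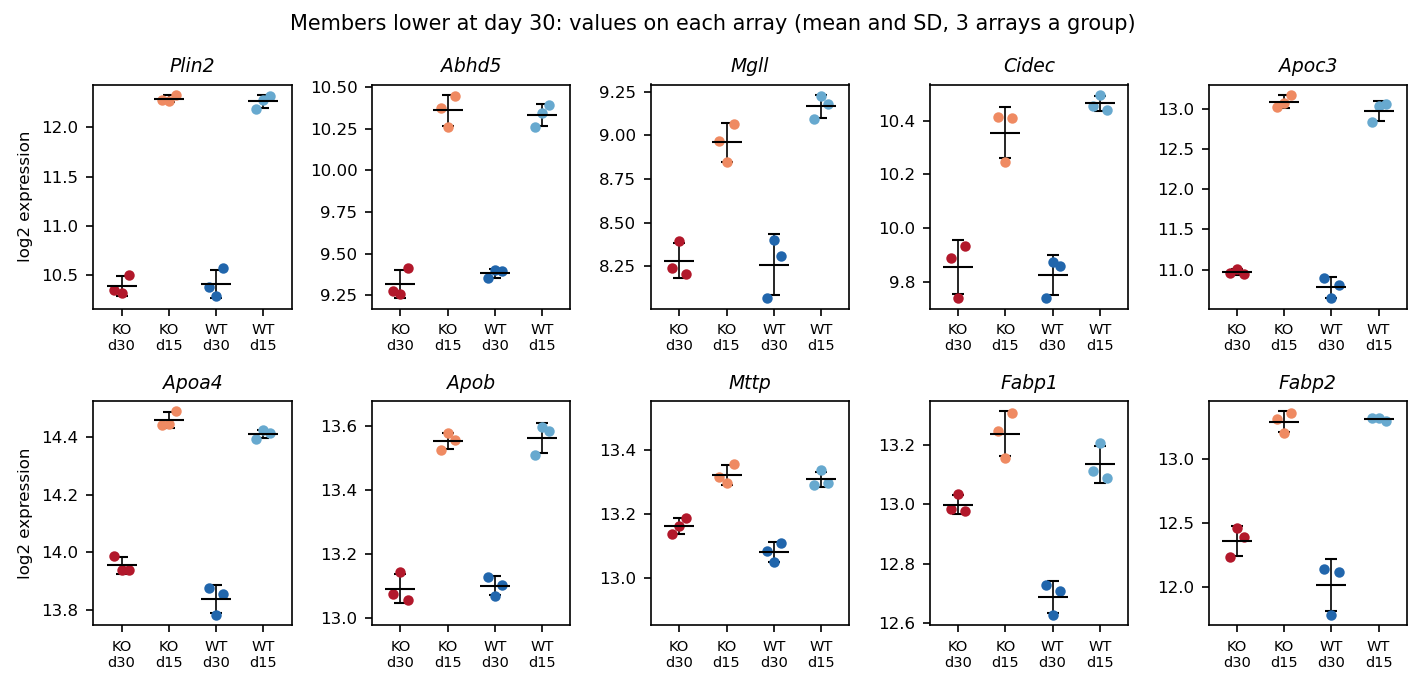
Log2 expression on each array for 10 members that were lower at day 30, with the mean and SD of the 3 arrays in each group. Red and orange points are knockout at day 30 and day 15, dark and light blue points wild type at day 30 and day 15. In every panel the day 30 points of a genotype lie below its day 15 points, by about 2 on the log2 scale for Apoc3 and Plin2 and by under 1 for Apoa4, Apob, Mttp and Fabp1.

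In triglyceride synthesis, enzymes that catalyse the same step moved in opposite directions. Of the 15 acylation genes, 8 rose and 3 fell in knockout, and 5 rose and 4 fell in wild type. Their median log2 fold change was 0.24 in knockout and 0.11 in wild type. Among all genes, 13.8% rose and 17.2% fell in knockout, and 12.3% rose and 17% fell in wild type. The pairs are described from the last step of the pathway back to the first.

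The last step, from diacylglycerol to triglyceride, is carried out by Dgat1 and Dgat2, which are unrelated in sequence. Dgat2 read 11.49, 11.42 and 11.53 in knockout at day 30, against 12.50, 12.35 and 12.41 in knockout at day 15. In wild type it read 11.10, 11.19 and 11.09 at day 30, against 12.42, 12.40 and 12.46 at day 15. The day 30 arrays were the low ones, and the ages did not overlap. Dgat2 fell 1.92-fold in knockout, a log2 fold change of -0.94 (standard error 0.06, limma adjusted p = 1e-07), and 2.47-fold in wild type, a log2 fold change of -1.30 (standard error 0.06, limma adjusted p = 8.3e-09).

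Dgat1, the main acyltransferase of intestinal fat absorption, rose in both genotypes. It read 12.19, 12.21 and 12.26 in knockout at day 30, against 11.93, 11.80 and 11.89 in knockout at day 15. Wild type values were 12.07, 12.03 and 12.07 at day 30, against 11.74, 11.75 and 11.64 at day 15. The log2 fold change was 0.35 in both genotypes (standard error 0.05, limma adjusted p = 0.00029 in knockout and 0.00028 in wild type). Mogat2, which forms the diacylglycerol from absorbed monoacylglycerol, is the chromosomal neighbour of Dgat2 in RefSeq. It was called in knockout alone, at 0.24 against 0.12 in wild type (limma adjusted p = 0.013 and 0.19), and the knockout call ended without knockout day 15 replicate 2 (adjusted p = 0.0627).

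The acylglycerophosphate acyltransferases, which make phosphatidic acid, split in the same way. Agpat3, an isoenzyme that favours polyunsaturated acyl chains, read 9.39, 9.38 and 9.38 in knockout at day 30, against 10.86, 10.83 and 10.90 in knockout at day 15. Wild type arrays read 9.57, 9.58 and 9.65 at day 30, against 10.76, 10.83 and 10.84 at day 15. The ages lay more than 1 apart on the log2 scale, with no overlap. It fell 2.79-fold in knockout (log2 fold change -1.48, standard error 0.05, limma adjusted p = 8.4e-10) and 2.31-fold in wild type (log2 fold change -1.21, standard error 0.05, limma adjusted p = 4.2e-09).

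Agpat1 and Agpat2, the isoenzymes best known for triglyceride synthesis, rose. Agpat1 averaged 10.62 ± 0.05 at day 30 and 9.96 ± 0.14 at day 15 in knockout, and 10.57 ± 0.02 at day 30 and 9.94 ± 0.10 at day 15 in wild type. Its log2 fold change was 0.66 in knockout and 0.63 in wild type (limma adjusted p = 1.6e-05 and 2.5e-05). Agpat2 rose by 0.42 in knockout and by 0.62 in wild type (limma adjusted p = 0.00058 and 2.5e-05). Agpat4 rose in knockout alone, at 0.41 against 0.13 in wild type, and Agpat5 passed in neither genotype.

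The first step, the acylation of glycerol phosphate, gave another contrast. Gpat3, an endoplasmic reticulum enzyme, read 10.10, 10.19 and 10.25 in knockout at day 30, against 9.41, 9.35 and 9.46 in knockout at day 15. The wild type values were 9.77, 9.68 and 9.81 at day 30, against 8.85, 8.89 and 8.84 at day 15. It rose by 0.77 in knockout and by 0.89 in wild type (standard error 0.06, limma adjusted p = 6.1e-07 and 1.9e-07).

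Gpam, the mitochondrial enzyme of the same reaction, fell. It averaged 8.06 ± 0.13 at day 30 and 8.49 ± 0.09 at day 15 in knockout, and 8.00 ± 0.13 at day 30 and 8.63 ± 0.06 at day 15 in wild type. Its log2 fold change came to -0.43 in knockout and -0.63 in wild type (limma adjusted p = 0.0015 and 7.1e-05). Gpat4, another endoplasmic reticulum enzyme, stayed within 0.10 of no change and passed in neither genotype.

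Of the lipins, the phosphatidate phosphatases that supply diacylglycerol, Lpin3 rose by 0.86 in knockout and by 0.82 in wild type (limma adjusted p = 6.5e-06 and 9.3e-06). Lpin1 rose in knockout alone, at 0.24 against -0.01 in wild type, and Lpin2 passed in neither genotype. Lpcat3, which places polyunsaturated chains into membrane phosphatidylcholine, fell in wild type at -0.28 (limma adjusted p = 0.0025) and read -0.10 in knockout (adjusted p = 0.21). The test of whether the genotypes differ in their age change passed for none of these genes, as given further on.

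**Figure D3:**
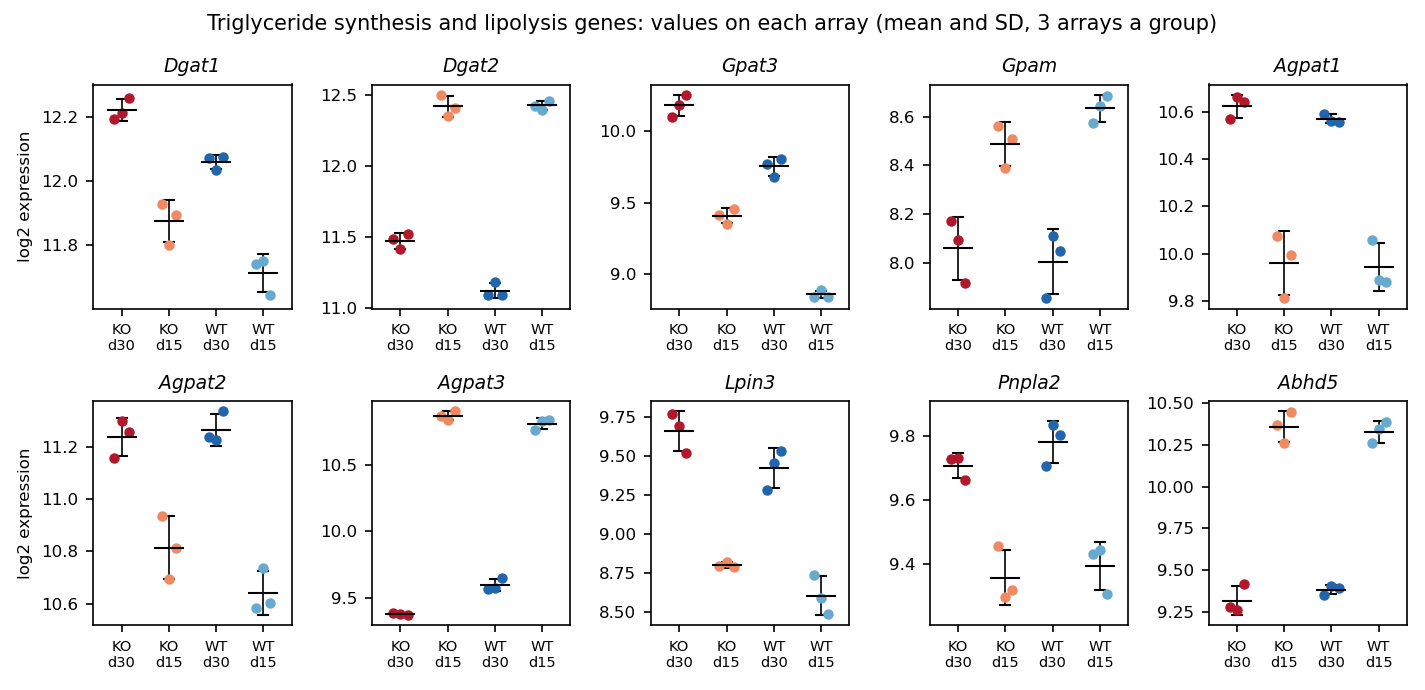
Log2 expression on each array for genes of triglyceride synthesis and lipolysis, with the mean and SD of the 3 arrays in each group, colours as in the plot of falling members. Dgat1, Gpat3, Agpat1, Agpat2, Lpin3 and Pnpla2 are higher at day 30 in both genotypes, while Dgat2, Gpam, Agpat3 and Abhd5 are lower.

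Of the 9 measured chylomicron genes, 6 fell and 1 rose in each genotype, where 17.2% of all genes fell in knockout and 17% in wild type. The group had a median log2 fold change of -0.41 in knockout and -0.27 in wild type. Apoc3, which slows the lipolysis of circulating triglyceride-rich particles, moved most of all members. It read 10.95, 11.01 and 10.94 in knockout at day 30, against 13.03, 13.07 and 13.18 in knockout at day 15. In wild type it read 10.90, 10.64 and 10.81 at day 30, against 12.84, 13.04 and 13.06 at day 15. Every day 30 array was lower than every day 15 array. Apoc3 fell 4.36-fold in knockout (log2 fold change -2.13, standard error 0.08, limma adjusted p = 1.8e-09) and 4.58-fold in wild type (log2 fold change -2.20, standard error 0.08, limma adjusted p = 1.6e-09).

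Apoc3 lies between Apoa1 and Apoa4 on chromosome 9 in RefSeq, and the log2 fold changes of these neighbours were smaller. Apoa4, a chylomicron surface protein made in the enterocyte, averaged 13.95 ± 0.03 at day 30 and 14.46 ± 0.03 at day 15 in knockout, and 13.84 ± 0.05 at day 30 and 14.41 ± 0.01 at day 15 in wild type. This was a log2 fold change of -0.51 in knockout and -0.57 in wild type (limma adjusted p = 5.1e-06 and 1.6e-06). Apoa1, the main protein of high-density lipoprotein, fell by 0.41 in knockout and by 0.34 in wild type (limma adjusted p = 4.2e-05 and 0.00017). Apoa1 and Apoa4 were among the brightest genes of the arrays, with means at the 100th percentile after rounding, and Apoa4 gave the highest gene value on any array, 14.49. Whether values so near the top of the scale understate the fall of Apoa1 and Apoa4 was not tested.

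Apob, the structural protein of the chylomicron, fell by 0.46 in both genotypes (standard error 0.05, limma adjusted p = 1.5e-05 in knockout and 1.4e-05 in wild type). Mttp, the transfer protein that loads lipid onto apolipoprotein B, fell by 0.16 in knockout and by 0.23 in wild type (limma adjusted p = 0.02 and 0.0025). The knockout call of Mttp ended without knockout day 15 replicate 3 or knockout day 30 replicate 1 (adjusted p up to 0.0800). Creb3l3, a membrane-bound transcription factor that activates apolipoprotein genes, fell by 0.41 in knockout and by 0.27 in wild type (limma adjusted p = 8.7e-05 and 0.0024).

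Tm6sf2, an endoplasmic reticulum protein needed to lipidate nascent lipoproteins, was the only chylomicron member that rose. It averaged 12.39 ± 0.01 at day 30 and 12.22 ± 0.02 at day 15 in knockout, and 12.30 ± 0.01 at day 30 and 11.95 ± 0.09 at day 15 in wild type. This gave a log2 fold change of 0.17 in knockout and 0.35 in wild type (limma adjusted p = 0.027 and 0.00025), and the knockout call ended without any 1 of its 6 arrays (adjusted p between 0.0513 and 0.0811). Sar1b, the GTPase that buds chylomicron carriers, and Pla2g12b, a phospholipase family member needed for lipoprotein secretion, passed in neither genotype. The log2 fold changes of these last genes lay between -0.13 and 0.06.

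Lipid droplet genes fell too, with 5 of 8 lower and 1 higher in each genotype and a median log2 fold change of -0.35 in knockout and -0.41 in wild type. Of all genes, 17.2% were lower and 13.8% higher in knockout, and 17% lower and 12.3% higher in wild type. Plin2, the coat protein of cytosolic droplets, read 10.35, 10.32 and 10.50 in knockout at day 30, against 12.27, 12.27 and 12.33 in knockout at day 15. Wild type arrays read 10.38, 10.29 and 10.57 at day 30, against 12.19, 12.28 and 12.32 at day 15. The ages were far apart with no overlap, and the genotypes overlapped at both ages. Plin2 fell 3.73-fold in knockout (log2 fold change -1.90, standard error 0.08, limma adjusted p = 3.8e-09) and 3.60-fold in wild type (log2 fold change -1.85, standard error 0.08, limma adjusted p = 4.7e-09).

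The lipase Pnpla2 and its protein activator Abhd5 moved apart. Abhd5 read 9.28, 9.26 and 9.42 in knockout at day 30, against 10.37, 10.26 and 10.45 in knockout at day 15. The wild type values were 9.35, 9.40 and 9.39 at day 30, against 10.26, 10.34 and 10.39 at day 15. All day 30 arrays lay below all day 15 arrays, at a log2 fold change of -1.04 in knockout and -0.95 in wild type (standard error 0.06, limma adjusted p = 1.2e-07 and 2.9e-07). Pnpla2, which removes the first acyl chain from stored triglyceride, rose by 0.35 in knockout and by 0.39 in wild type (limma adjusted p = 0.00085 and 0.00039).

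Mgll, the monoacylglycerol lipase that ends the chain of lipolysis, averaged 8.28 ± 0.10 at day 30 and 8.96 ± 0.11 at day 15 in knockout, and 8.26 ± 0.17 at day 30 and 9.17 ± 0.07 at day 15 in wild type. Its log2 fold change was -0.68 in knockout and -0.91 in wild type (limma adjusted p = 7.8e-05 and 6.7e-06). Cidec, a protein that enlarges droplets, fell by 0.50 in knockout and by 0.64 in wild type (limma adjusted p = 0.0001 and 1.3e-05). The droplet coat gene Plin3 was called in knockout (-0.20, against -0.15 in wild type). Cideb, which acts in lipoprotein lipidation, was called in wild type (-0.19, against -0.13 in knockout), a call that ended without wild type day 15 replicate 2 or wild type day 30 replicate 1 or 2 (adjusted p up to 0.0699). Lipe, the hormone-sensitive lipase, passed in neither genotype.

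Markers of smooth muscle, endothelium and lymphocytes moved with age beside these genes. The mean of 12 smooth muscle markers lay between 10.01 and 10.06 in knockout at day 30 and between 10.39 and 10.57 in knockout at day 15. It lay between 9.97 and 10.14 in wild type at day 30 and between 10.67 and 10.77 in wild type at day 15. Of these markers, 11 of 12 fell in knockout and 12 of 12 in wild type, and 7 of 9 endothelial markers fell in knockout and 8 of 9 in wild type.

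Lymphocyte markers rose in 7 of 7 cases in knockout and 6 of 7 in wild type, with median log2 fold changes of 1.84 and 1.91. Of 12 epithelial markers, 5 rose and 1 fell in knockout, and 8 rose and 1 fell in wild type. Their mean lay between 12.15 and 12.18 in knockout at day 30 and between 12.04 and 12.10 in knockout at day 15. In wild type it lay between 12.15 and 12.19 at day 30 and between 11.99 and 12.04 at day 15. The mean of 7 adipocyte markers lay between 6.02 and 6.16 on all arrays, and 1 of them was called with age, Fabp4, which fell and which capillaries also express. Of 7 hepatocyte markers, 1 rose and 1 fell in each genotype, 28.6% of the list and near the share of all genes. At day 30, 1 hepatocyte marker was higher and 1 lower in knockout, where 1.98% of all genes were called.

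With the smooth muscle mean in the fit, 24 of the 28 age calls in knockout and 24 of the 26 in wild type ended. Those that remained were Apoc3, Plin2, Agpat3 and Dgat2 in knockout, and Apoc3 and Plin2 in wild type. Most calls over all genes ended as well. In that fit 2.02% of all genes were called with age in knockout and 0.286% in wild type, against 31% and 29.3% without the covariate. The median standard error of the knockout age change grew to 0.18 in that fit, against 0.06 without the covariate, since 96.3% of the covariate's variance lay between the groups. The log2 fold change of Plin2 in knockout was -1.90 with the covariate and -1.90 without it, and that of Apoc3 -2.18 with it and -2.13 without it. With the endothelium mean in the fit, chosen after seeing the data, Plin2 and Agpat3 were still called in knockout and no member in wild type, and 98.1% of that covariate's variance lay between the groups. With it 0.727% of all genes were called with age in knockout and 0.351% in wild type. Age and tissue makeup cannot be told apart here.

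Fewer members were called between genotypes than between ages, and more were higher than lower in knockout, 28 of 37 by sign at day 30 and 23 of 37 at day 15. Of all 19938 genes, 9612 were higher in knockout by sign at day 30 and 9160 at day 15. At day 30, 7 members were higher and 2 lower in knockout, 24.3% of the members, where 1.98% of all genes were called (1.04% higher and 0.943% lower). Among the 4985 brightest genes 4.43% were called, and 7 of the 30 bright members were. At day 15, 3 members were higher and 0 lower in knockout, 8.11% of the members, where 3.83% of all genes were called (1.81% higher and 2.03% lower). Among the 4985 brightest genes 8.08% were called at day 15 (4.65% higher and 3.43% lower), and 3 of the 30 bright members were. The day 15 share of members was thus near that of bright genes. With an unadjusted p under 0.05 there were 15 members higher and 2 lower at day 30, where 11.2% of all genes were under it (5.54% higher and 5.68% lower). At day 15 there were 12 higher and 1 lower, where 15.2% of all genes were (6.22% higher and 8.99% lower). The median log2 fold change of the members was 0.07 at day 30 and 0.02 at day 15, and that of all genes -0.00 at day 30 and -0.01 at day 15.

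The arrays of the genotypes did not overlap for 20 members at day 30, of which 17 were higher and 3 lower in knockout, where 15.4% of all genes did not overlap. At day 15 they did not overlap for 15 members, 11 higher and 4 lower in knockout, where the share was 21.3% of all genes. A fold of 2 was reached by no called member at either age.

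**Figure D4:**
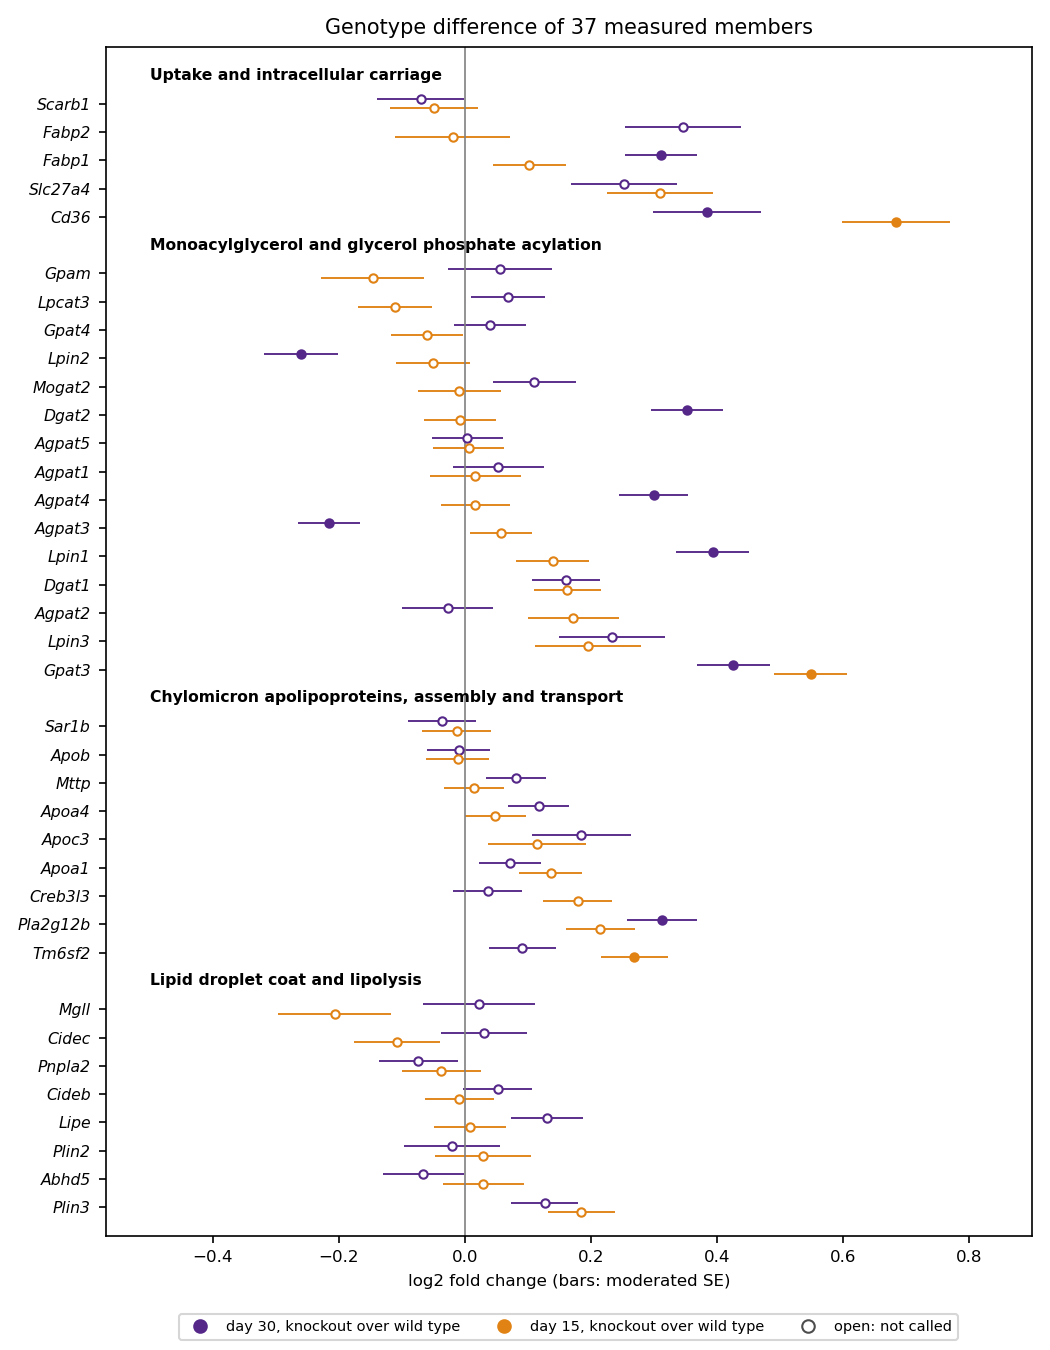
Genotype difference of the 37 measured members, grouped by role, as log2 fold change of knockout over wild type. Purple points are day 30, orange points day 15, bars the moderated standard error, and filled points were called by limma. Gpat3 and Cd36 lie to the right at both ages, and no droplet or lipolysis gene was called at either age.

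Gpat3 and Cd36 were higher in knockout at both ages. Gpat3, an acyltransferase of the first step, read 10.10, 10.19 and 10.25 in knockout, against 9.77, 9.68 and 9.81 in wild type at day 30. At day 15 it read 9.41, 9.35 and 9.46 in knockout, against 8.85, 8.89 and 8.84 in wild type. Each knockout array lay above each wild type array of its age. The log2 fold change was 0.43 at day 30 (standard error 0.06, limma adjusted p = 0.0015) and 0.55 at day 15 (standard error 0.06, limma adjusted p = 0.00015). Gpat3 thus moved up with age and stood higher in knockout at each age.

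Cd36 moved down with age yet was also higher in knockout. At day 30 it read 10.68, 10.82 and 10.57 in knockout, against 10.29, 10.32 and 10.31 in wild type. At day 15 it read 11.25, 11.37 and 11.35 in knockout, against 10.44, 10.78 and 10.69 in wild type. The knockout arrays at day 30 overlapped the wild type arrays at day 15, while within each age the genotypes did not overlap. Its log2 fold change came to 0.38 at day 30 (standard error 0.09, limma adjusted p = 0.039) and 0.68 at day 15 (standard error 0.09, limma adjusted p = 0.00059). The day 30 call ended without any 1 of 5 of its 6 arrays (all but knockout day 30 replicate 3), with adjusted p up to 0.141.

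At day 15 the remaining call was Tm6sf2. It read 12.22, 12.20 and 12.24 in knockout, against 11.93, 12.05 and 11.88 in wild type, and the arrays did not overlap. This gave a log2 fold change of 0.27 (standard error 0.05, limma adjusted p = 0.014), and the call ended without knockout day 15 replicate 3 or wild type day 15 replicate 1 or 3 (adjusted p up to 0.0683). At day 30 the difference was 0.09 and did not pass. Slc27a4, the fatty acid transport protein, did not pass at day 15 (0.31, limma adjusted p = 0.066) but did without wild type day 15 replicate 1 (adjusted p = 0.0073). At day 15 all 12 smooth muscle markers were lower in knockout in sign and 3 were called, with a list median of -0.21. With the smooth muscle mean in the fit only Gpat3 was called at day 15. The median standard error of the day 15 difference was 0.10 in that fit, against 0.06 without the covariate. Of all genes, 0.522% were called at day 15 in that fit, against 3.83% without it.

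At day 30 the fatty acid carrier Fabp1 was among the members higher in knockout. It read 12.98, 13.03 and 12.98 in knockout, against 12.73, 12.63 and 12.71 in wild type. The log2 fold change was 0.31 (standard error 0.06, limma adjusted p = 0.013), and the call ended without knockout day 30 replicate 2 or wild type day 30 replicate 2 (adjusted p up to 0.0674). Fabp2 read 0.35 at day 30 (standard error 0.09, limma adjusted p = 0.084) with no overlap of the arrays. Its 95% interval, 0.15 to 0.54, reached past 0.5.

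Dgat2, the diacylglycerol acyltransferase that fell with age, was higher in knockout at day 30, with 11.49, 11.42 and 11.53 in knockout, against 11.10, 11.19 and 11.09 in wild type. Its log2 fold change came to 0.35 (standard error 0.06, limma adjusted p = 0.0056). At day 15 the genotypes overlapped, with a difference of -0.01 (95% interval -0.13 to 0.12). Dgat1 stood 0.16 higher at each age without passing (limma adjusted p = 0.21 at day 30 and 0.14 at day 15).

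The lipins differed among themselves at day 30. Lpin1 read 7.87, 7.83 and 7.68 in knockout, against 7.37, 7.45 and 7.39 in wild type, a log2 fold change of 0.39 (standard error 0.06, limma adjusted p = 0.003). Lpin2 read 10.28, 10.23 and 10.22 in knockout, against 10.40, 10.50 and 10.61 in wild type, a log2 fold change of -0.26 (standard error 0.06, limma adjusted p = 0.042). The Lpin1 arrays were high and the Lpin2 arrays low in knockout, without overlap in either gene. The Lpin2 call ended without any 1 of 5 of its 6 arrays (all but wild type day 30 replicate 1), with adjusted p up to 0.178.

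The acylglycerophosphate acyltransferases also split. Agpat4 read 7.25, 7.23 and 7.18 in knockout, against 6.91, 7.0 and 6.85 in wild type at day 30, a log2 fold change of 0.30 (limma adjusted p = 0.012). Agpat3 read 9.39, 9.38 and 9.38 in knockout, against 9.57, 9.58 and 9.65 in wild type, a log2 fold change of -0.22 (limma adjusted p = 0.044). Agpat4, the dimmest member, was high and Agpat3 low in knockout, with no overlap in either. The Agpat3 call ended without any 1 of its 6 arrays (adjusted p between 0.0790 and 0.186), and the Agpat4 call without knockout day 30 replicate 1 or wild type day 30 replicate 3 (adjusted p up to 0.0675).

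Pla2g12b, which did not pass with age, read 9.56, 9.63 and 9.51 in knockout, against 9.25, 9.19 and 9.33 in wild type at day 30. The knockout arrays were all higher, with a log2 fold change of 0.31 (standard error 0.06, limma adjusted p = 0.011), a call that ended without wild type day 30 replicate 2 (adjusted p = 0.0537). At day 15 its difference was 0.22 and did not pass (limma adjusted p = 0.052). Apob, Plin2 and Abhd5 differed between genotypes by at most 0.07 at either age, and the 95% intervals of all these differences lay between -0.21 and 0.19.

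The pools of mixed sex also differed in Xist, an RNA of female cells. It lay between 10.33 and 10.81 in knockout at day 30 and between 9.26 and 10.67 in wild type at day 30. With Xist as a covariate the day 30 calls of Cd36, Dgat2, Agpat3, Agpat4 and Lpin2 ended and Fabp2 was called. Of all genes, 0.928% were called at day 30 in that fit, against 1.98% without it. The smooth muscle list had a median genotype difference of -0.04 at day 30 and the epithelial list one of -0.01.

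Pancreatic acinar markers were mostly lower in knockout by sign alone. Of 10 acinar markers, 10 were lower in knockout in sign at day 30 (median -0.36) and 9 at day 15 (median -0.35), and none was called. Their mean lay between 11.95 and 12.47 in knockout and between 12.27 and 13.01 in wild type at day 30, and between 11.81 and 12.35 in knockout and between 12.52 and 12.61 in wild type at day 15. With the acinar mean in the fit, chosen after seeing the data, Gpat3, Dgat2, Lpin1 and Agpat4 were still called at day 30, and the calls of Cd36, Fabp1, Pla2g12b, Agpat3 and Lpin2 ended (adjusted p between 0.081 and 0.22). Gpat3 and Cd36 were still called at day 15, and Tm6sf2 was not (adjusted p = 0.095). Over all genes the share called with the acinar mean was 0.908% at day 30, against 1.98% without it. At day 15 it was 1.13%, against 3.83% without it. The log2 fold changes of the members that lost their call at day 30 were 0.36 for Cd36, 0.31 for Fabp1, 0.30 for Pla2g12b, -0.21 for Agpat3 and -0.24 for Lpin2 in that fit, beside 0.38, 0.31, 0.31, -0.22 and -0.26 without it.

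**Figure D5:**
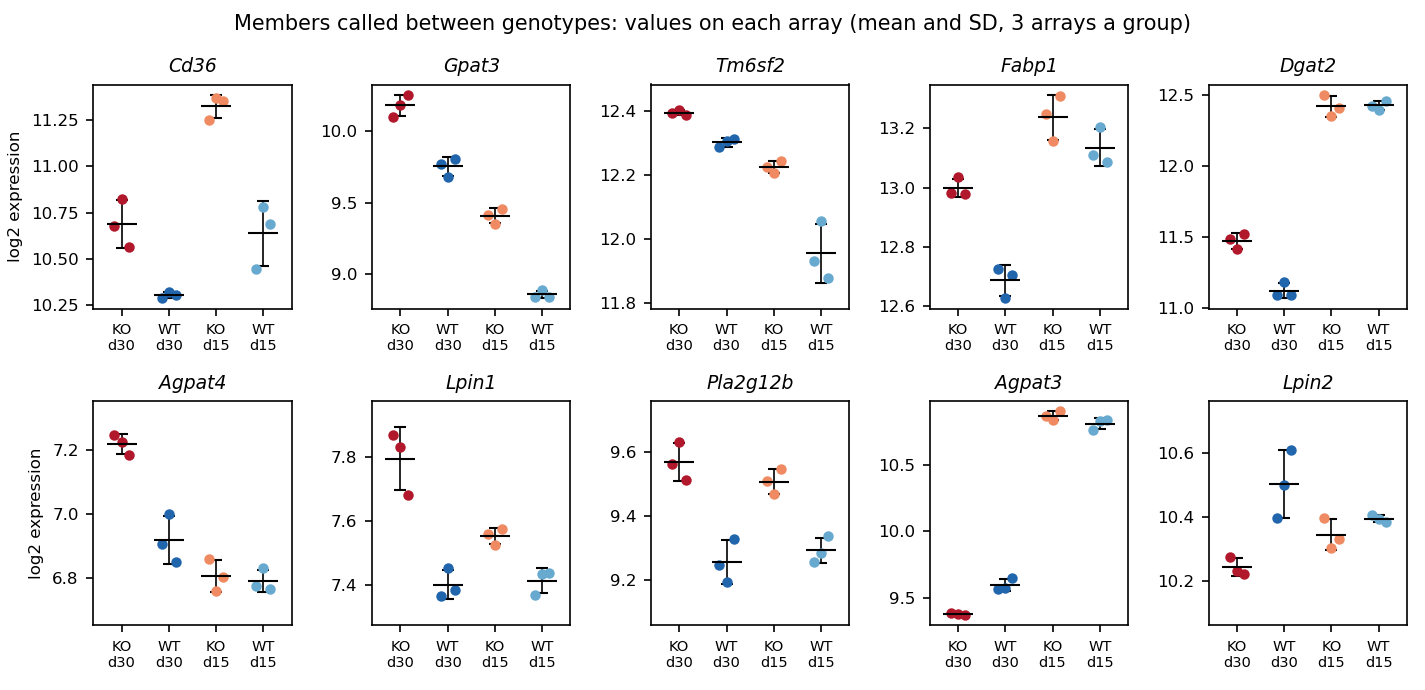
Log2 expression on each array for the 10 members called between genotypes at either age, with the mean and SD of the 3 arrays in each group. Knockout stands left of wild type at each age. Gpat3 and Cd36 are higher in knockout at both ages, Tm6sf2 at day 15, and Agpat3 and Lpin2 are lower in knockout at day 30.

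Whether the genotype difference changed with age was tested as an interaction, the knockout minus wild type difference at day 30 less that at day 15. No member passed, where 0.456% of all genes were called. At an unadjusted p under 0.05 there were 9 of 37 members (5 higher and 4 lower), where 8.85% of all genes were (4.89% higher and 3.96% lower). Dgat2 came closest at 0.36 (standard error 0.08, limma adjusted p = 0.091), followed by Agpat3 at -0.27 (standard error 0.07, limma adjusted p = 0.16). Both passed with an intensity trend in the moderation (limma adjusted p = 0.018 and 0.043). The 95% interval lay within 0.5 of 0 for 33 of the 37 members, so a larger interaction was outside the interval for these.

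Genes outside the module that act in the same pathway were counted in 7 further lists, to be read beside the 31% of all genes called with age in knockout and the 29.3% in wild type. Of 6 luminal digestion enzymes, 1 rose and 1 fell with age in each genotype, 33.3% of the list. Pla2g1b, the pancreatic phospholipase, rose by 2.79 in knockout and 2.14 in wild type, and Pnliprp1, a pancreatic lipase-related protein, had log2 fold changes of -1.30 in knockout and -0.96 in wild type. With the acinar mean in the fit, 2 of these enzymes fell in each genotype. The list and the acinar markers share a measured gene, so that fit is not independent of the list.

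Of 16 other genes of fatty acid uptake and activation, 7 fell and 1 rose in knockout (50%) and 6 fell in wild type (37.5%). They were led by Slc27a2, which activates very long-chain fatty acids, at -0.99 in knockout and -1.29 in wild type, and by Cav1, the caveolar coat protein, at -0.72 and -1.0. Cav1 is also made by endothelium and muscle, whose markers fell alongside it. Of 15 other droplet and lipase genes, 2 rose and 2 fell in each genotype, 26.7% of the list and so near or below the share of all genes. Mogat1, a second monoacylglycerol acyltransferase, read 9.0, 9.32 and 7.66 in knockout at day 30, against 7.66, 7.61 and 7.55 in knockout at day 15, so that 1 of the day 30 arrays lay at the day 15 level. In wild type it read 8.27, 8.63 and 8.71 at day 30, against 6.89, 7.80 and 7.39 at day 15. Its log2 fold changes of 1.06 in knockout and 1.18 in wild type were called, but the knockout call ended without any 1 of 5 of its 6 arrays (all but knockout day 30 replicate 3, adjusted p up to 0.116), and the wild type call without wild type day 15 replicate 1 or wild type day 30 replicate 2 or 3 (adjusted p up to 0.0701). Hsd17b11, a droplet-associated dehydrogenase, fell with age (-0.96 in knockout and -0.91 in wild type) and was lower in knockout at both ages (-0.33 at day 30 and -0.28 at day 15). The genotype calls of Hsd17b11 ended without knockout day 30 replicate 1 or wild type day 30 replicate 2 or 3 (adjusted p up to 0.0824), and without replicate 2 or 3 of either genotype at day 15 (adjusted p up to 0.125).

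Of 16 other apolipoproteins and lipoprotein receptors, 4 fell with age in knockout (25%, below the share of all genes), and 7 fell and 1 rose in wild type (50%). At day 15, 4 were lower in knockout, among them Apoe, a ligand of lipoprotein receptors, at -0.47 and Angptl4, an inhibitor of lipoprotein lipase, at -0.60. The call of Apoe ended without knockout day 15 replicate 1 or 2 or wild type day 15 replicate 2 or 3 (adjusted p up to 0.151), and that of Angptl4 without knockout day 15 replicate 2 or 3 or wild type day 15 replicate 1 or 2 (adjusted p up to 0.0985). Lipoprotein lipase itself, Lpl, fell with age at -0.72 in knockout and -0.75 in wild type. Of 17 genes of vesicle budding and fusion on the chylomicron route, 5 rose and 2 fell in knockout (41.2%) and 6 fell in wild type (35.3%), with log2 fold changes between -0.39 and 0.23 over the list. Sec24d, a coat subunit, fell in both genotypes and was higher in knockout at day 30 at 0.23, a call that ended without any 1 of its 6 arrays (adjusted p between 0.0594 and 0.158).

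Of 12 genes of fatty acid synthesis, 5 rose and 3 fell in knockout (66.7%), and 3 rose and 3 fell in wild type (50%). Fasn, the fatty acid synthase, rose by 0.66 in knockout and 0.57 in wild type. Srebf1, a transcription factor of lipogenic genes, had log2 fold changes of -0.45 in knockout and -0.65 in wild type. Me1, the malic enzyme that supplies NADPH, was lower in knockout at both ages, at -0.51 at day 30 and -0.60 at day 15.

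Of 14 transcription factors of intestinal lipid handling, 8 rose and 2 fell in knockout (71.4%), and 10 rose and 3 fell in wild type (92.9%). Ppard, a nuclear receptor for fatty acids, rose by 0.97 in knockout and 0.84 in wild type, and the coactivator Ppargc1a by 1.1 and 0.66. Prdm1, a repressor of the mature intestinal programme in suckling mice, fell by 1.27 in knockout and by 0.63 in wild type. The adjusted p of every gene named in these lists was under 0.05 in limma in the comparison given. The median log2 fold change with age of each of these lists lay between -0.12 and 0.08 in both genotypes, apart from the digestion enzymes (0.13 in knockout and -0.05 in wild type) and the transcription factors (0.29 in knockout and 0.30 in wild type), beside 0.03 and 0.02 over all genes. Between genotypes, each list held at most 4 called genes at either age.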

How the data were processed

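Total RNA of 12 duodenal pools was measured on Affymetrix arrays. Per the submitters' processing notes, the authors made the deposited log2 values with Affymetrix Expression Console 1.1 and RMA. No source used here names the genome build. Of 35557 features, 21789 carried 1 symbol in the platform annotation, 1621 several and 12147 none, which gave 19938 genes, each by its feature with the highest mean. The 4 group means were fitted to all 12 arrays with limma 3.58.1 in R 4.3.3 (lmFit, eBayes, 8 residual degrees of freedom), after tests on simulated data. Genes were called at a Benjamini-Hochberg adjusted p under 0.05 over all genes. The number of arrays limits the precision. P-values measure the spread between pools, not between single mice. The members and lists were chosen with earlier results of these data known. All measured members could be named, and of each other list up to 3 called genes with the largest change per comparison. Array values are given for members called at 2-fold or more, or called between genotypes, and for Dgat1. Alternatives covered moderation, filtering, weights, centring, covariates, the replicate block and left-out arrays. Promoter windows came from RefSeq on GRCm38.p6.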

Additional observations from a re-analysis of the deposited data

Results flagged for a closer look

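Among the genes outside the module, Apoc1 and Scd2 had a genotype difference that itself differed between ages, by the limma interaction test. Apoc1, a small apolipoprotein, read 6.10, 5.68 and 6.25 in knockout and 6.17, 5.55 and 5.95 in wild type at day 30, and 6.53, 6.53 and 6.41 in knockout and 7.73, 7.77 and 7.67 in wild type at day 15. The genotypes overlapped at day 30 and stood apart at day 15, with an interaction of 1.35 (SE 0.21, limma adjusted p = 0.015). The day 30 values of Apoc1 lay around 6.20, the 25th percentile of gene means. Whether so low a signal hid a genotype difference at day 30 was not tested. The interaction of Apoc1 did not pass without wild type day 15 replicate 2 (adjusted p = 0.0514).

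Scd2, a stearoyl-CoA desaturase, read 10.20, 10.33 and 10.04 in knockout and 9.85, 10.07 and 10.01 in wild type at day 30, and 9.12, 9.08 and 9.15 in knockout and 9.75, 9.65 and 9.63 in wild type at day 15. It was lower in knockout at day 15, and the genotypes overlapped at day 30. The interaction was 0.77 (SE 0.11, limma adjusted p = 0.0084). With 3 arrays in each group, single arrays were not tested for standing apart from their group.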

How the results depend on the processing

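With robust moderation or with the mean of a gene's features, every count of called members and every call of a named gene stayed as reported. With the smooth muscle mean in the fit, 0 members rose and 4 fell with age in knockout, and 0 rose and 2 fell in wild type, beside 11, 17, 8 and 18 without it. With the endothelium mean, added after seeing the data, these counts were 0 and 2 in knockout and 0 and 0 in wild type. With the epithelium mean, also added after seeing the data, 4 rose in knockout, and 1 rose and 6 fell in wild type. In knockout the falls of Cd36, Fabp1, Gpam, Mttp and Plin3 lost their call, and the other falls kept theirs. These covariates had 90.3% to 98.1% of their variance between the groups. With the epithelium mean 8.55% of all genes were called with age in knockout and 1.75% in wild type. At day 15 the 3 members higher in knockout became 8 with an intensity trend, 6 with the 14953 brightest genes alone, 6 with array weights, 5 with each array centred on its median and 1 with the smooth muscle mean. At day 30 the 7 members higher in knockout became 3 from the 6 arrays of that age alone. The 2 lower became 0 with the replicate block, with centring, with the smooth muscle mean, with Xist and from the 6 arrays alone, and 1 with the endothelium or epithelium mean. With the pancreas acinar mean, also added after seeing the data, 4 were higher and 0 lower at day 30. The interaction, with 0 members called, gave 1 higher and 1 lower with an intensity trend and 1 lower, Cd36, with the endothelium mean.

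Leaving out each array in turn gave 8 to 11 members higher and 16 to 17 lower with age in knockout, and 7 to 8 higher and 16 to 18 lower in wild type. Between genotypes it gave 2 to 3 higher and 0 lower at day 15, and 4 to 7 higher and 0 to 1 lower at day 30, the 4 without wild type day 30 replicate 2. For the interaction it gave 0.

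Signs turned under covariates, none of them called there, and the cause was not tested. With the endothelium mean the age change in knockout was 0.51 for Cd36, -0.61 for Slc27a4, 0.20 for Gpam, 0.51 for Fabp4 and 0.22 for Prdm1. In wild type it was 0.96 for Cd36, -0.66 for Slc27a4, 0.079 for Gpam, 0.46 for Fabp4, 1.05 for Prdm1, 0.072 for Mia2, 0.59 for Bet1 and -0.011 for Ppargc1b. With the smooth muscle mean Gpam was 0.11 in knockout and 0.13 in wild type, and in wild type Mgll was 0.035, Pnliprp1 0.83 and Bet1 0.38. With the epithelium mean Elovl6 was -0.015, Prdm1 0.080 and Ppargc1b -0.11 in wild type.

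Replicate numbers were not taken to pair the samples. Deviations of same-numbered arrays correlated between -0.252 and 0.359, over 0.1 in 5 of 12 pairs, and an array correlated best with its own number in 13 of 36 cases. With the number as a block, the calls of Agpat3 and Lpin2 at day 30 ended and no other call of a member changed.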
